A study of Mus musculus with 27 samples.

Results

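Loss of Tbr2 was examined at embryonic day 16 (E16) in 6 arrays labelled Tbr2 conditional knockout (cKO) embryonic cortex, set against 5 arrays labelled E16 embryo. These 11 arrays were chosen by genotype and stage from the 27 of the series, which also holds both genotypes at E13 and neurons sorted by green fluorescent protein (GFP) at postnatal day 2. Each array held biotin-labelled cRNA made from the total RNA of 1 mouse sample, on an Illumina BeadChip. In the embryo table each column name includes WT, read here as wild type. For those embryo samples the age field repeats E13, so the stage was taken from the titles, and no label of theirs names a tissue. The extraction text speaks of GFP-positive Tbr2-lineage cells for every sample, although only the postnatal samples are titled as sorted. The sources used here give neither the Cre driver, the deleted part of the gene and the strain nor whether arrays came from separate animals. As a result, p-values measure the spread between these samples, which may be technical.

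Eomes encodes Tbr2, a T-box transcription factor. In the developing cortex it marks intermediate progenitors, the dividing cells that arise from Pax6-positive radial glia and produce glutamatergic neurons of all layers. Newborn neurons then turn on the related T-box gene Tbr1. Tbr2 is also present in Cajal-Retzius cells of the cortical surface and in the mitral and tufted cells of the olfactory bulb.

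The E16 arrays detected 36.9% to 39.8% of 45281 probes at a detection p under 0.01, with median raw signals of 8.51 to 16.8, and their normalised values correlated at 0.971 to 0.991. The number of arrays limited the precision. Cortical glutamatergic markers were high in both groups: on the normalised log2 scale Neurod2, a factor of excitatory neurons, averaged 13.98 ± 0.17 in cKO arrays (SD, n = 6) and 13.96 ± 0.15 in embryo arrays (SD, n = 5). Bcl11b, a deep-layer neuron factor, averaged 12.98 ± 0.29 in cKO arrays and 13.03 ± 0.19 in embryo arrays. The cKO and embryo arrays came in separate deposited tables, so genotype and table cannot be told apart. All 27 arrays were normalised together, and the log2 difference of cKO minus embryo was tested for 10663 genes in 1 limma fit over all groups, with genes called at a Benjamini-Hochberg adjusted p under 0.05. Below, a value is a normalised log2 signal unless it is called a difference, and array numbers follow column order and serve as names only.

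Array 3 of the cKO group stood apart from its group. For each array, the genes called without it were used to place it on a line where 0 is the embryo mean and 1 the cKO mean of the other arrays. Array 3 lay at -0.015 over 235 such genes, among the embryo arrays, which lay between -0.028 and 0.213. The other 5 cKO arrays lay between 0.998 and 1.16. The same line was drawn over 11 genes called from the E13 arrays alone, a choice of genes in which no E16 array took part. There array 3 lay at -0.076, the other cKO arrays between 0.915 and 1.60, and the embryo arrays between 0.041 and 0.252. On the first principal component of the 11 arrays, with 24.1% of the variance, cKO arrays lay between -16.1 and 20.4, with array 3 at -0.46. Embryo arrays lay there between -24.0 and 11.1. In both groups this component rose from low to middle to high numbers in the column headers. On the second principal component, with 21.1% of the variance, array 3 lay at -19.5, the other cKO arrays between -2.86 and 20.3, and the embryo arrays between -19.5 and -3.03. Results are therefore given with array 3 and without it. Leaving it out for its likeness to embryo favours calls, so values without it are no independent test, and why it lies there was not tested.

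**Figure D1:**
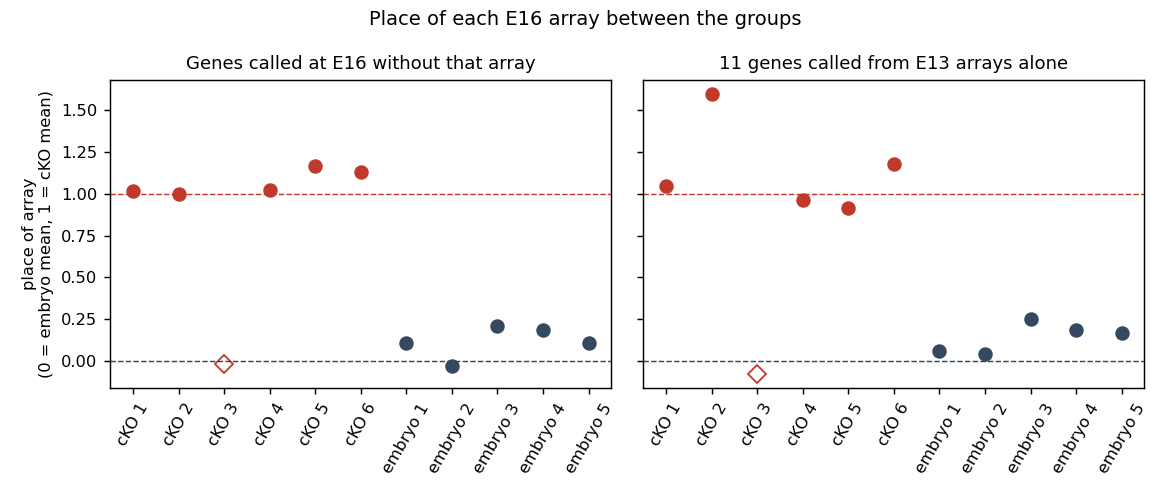
Place of each E16 array on the line between the embryo mean (0, lower dashed line) and the cKO mean (1, upper dashed line), as the median over genes called without that array (left) and over 11 genes called from E13 arrays alone (right). The 6 cKO arrays are on the left of each panel and the 5 embryo arrays on the right; cKO array 3, the open diamond, lies at -0.015 and -0.076, among the embryo arrays in the left panel and below them in the right.

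The targeted gene was not lower in the cKO arrays. Eomes measured 10.91, 11.21, 10.27, 11.32, 11.22 and 11.61 in cKO arrays 1 to 6, against 10.55, 10.65, 10.88, 10.01 and 10.43 in embryo arrays 1 to 5. Array 3 was the lowest of the cKO arrays and lay within the embryo range, while the other 5 lay above every embryo array. The difference was 0.59 ± 0.20 (SE; limma adjusted p = 0.272), and 0.75 ± 0.18 without array 3 (adjusted p = 0.0181). A second Eomes probe averaged 9.70 ± 0.65 in cKO arrays and 9.26 ± 0.16 in embryo arrays, a difference of 0.44 with 95% limits of -0.0086 and 0.886. A probe outside the deleted part of a gene checks nothing, and where these probes lie relative to it is not given in the sources used here. Each genotype is therefore as labelled, and cKO array 3 is the array labelled so.

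Between the groups 28 genes were higher in cKO arrays (0.263% of those tested) and 24 were lower (0.225%), 52 in all (0.488%), of which 20 and 14 differed at least 2-fold. At an unadjusted p under 0.05 there were 749. Without array 3, 115 genes were higher (1.08%) and 120 lower (1.13%), 235 in all (2.2%), and these included all 52. Across all genes, 29 had every cKO array above every embryo array (0.272%) and 50 had every cKO array below (0.469%). Without array 3 these numbers were 174 (1.63%) and 171 (1.6%). Array 3 lay within the embryo range for 21 of the 28 higher genes and 11 of the 24 lower ones. The other 5 cKO arrays lay outside it for 27 and 24 of them. In RNA pooled from many cells, fewer cells of a type and less RNA per cell cannot be told apart, nor can more cells and more RNA. Numbers in the column headers fell into 3 ranges, each with arrays of both groups: 11 to 16, 79 and 80 (array 3 of each group), and 91 upwards. The median difference of the 28 genes was 1.45 within the low range, 1.35 within the high range and -0.025 between both arrays numbered 3. For the 24 lower genes it was -1.26 in the low range, -1.30 in the high range and -0.21 between the arrays numbered 3. With only the E16 groups in the fit, 1 gene was higher, Omp (limma adjusted p = 0.0495), and 9 lower (730 at an unadjusted p under 0.05). There Gbx2 (0.108), Ebf3 (0.117), Lmcd1 (0.117) and Cdhr1 (0.204) were not called. With each deposited table normalised alone 27 genes were higher and 68 lower, with only the 11 E16 arrays normalised and fitted (9399 genes tested) 0 and 6, and on the authors' series matrix values 7 and 14.

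The genes that rose included several transcription factor genes. Gbx2, a homeobox factor of the thalamus and the midbrain-hindbrain boundary, measured 9.11, 9.50, 4.98, 9.55, 9.65 and 9.22 in cKO arrays 1 to 6, against 4.90, 4.90, 5.12, 4.89 and 4.98 in embryo arrays. It was above background in 5 of 6 cKO arrays and in 0 of 5 embryo arrays, and array 3 alone of the cKO group sat at the embryo level. Its mean level was at least 7.51-fold higher in cKO arrays (limma adjusted p = 0.00407) and at least 12.5-fold without array 3 (3.37e-07). Here and below, an "at least" fold is a bound for the group means set by background, and leaves out the spread between arrays. An array of the other group that was itself below background entered at its measured value, which makes the bound approximate. This holds for Gbx2, Pou4f1, Foxn4 and Cdhr1 with array 3 included, and for Pax6 and Adgra1. The p-values test the measured difference, which for Gbx2 was 3.71 with array 3, with 95% limits of 2.46 and 4.96. Ebf3, an early B-cell factor gene expressed in Cajal-Retzius cells, measured 12.86, 12.79, 9.30, 12.36, 12.46 and 12.77 in cKO arrays, against 9.27, 9.04, 10.16, 9.22 and 9.06 in embryo arrays. Embryo array 3, at 10.16, exceeded cKO array 3, and the other 5 cKO arrays lay above both. The fold was 6.68 (difference 2.74 ± 0.49, adjusted p = 0.00789), and a second Ebf3 probe differed by 2.55. Its relative Ebf2 averaged 7.43 ± 0.82 in cKO arrays and 5.75 ± 0.48 in embryo arrays, a difference of 1.68 ± 0.30 (adjusted p = 0.00847), with a signal above background in 5 of 6 and 2 of 5 arrays.

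Further regulators rose with them. Pou4f1, the POU-domain factor Brn3a of sensory and habenular neurons, measured 6.88, 7.42, 4.76, 6.80, 6.68 and 6.97 in cKO arrays, against 5.32, 5.23, 4.55, 4.75 and 5.02 in embryo arrays. All cKO arrays but array 3 lay above the embryo range, no embryo array was above background, and the level was at least 1.77-fold higher (limma adjusted p = 0.0266). Uncx, a paired-type homeobox gene, measured 7.88, 8.45, 7.52, 8.39, 7.89 and 7.93 in cKO arrays, against 5.04, 4.84, 7.78, 7.02 and 5.73 in embryo arrays. Its embryo arrays were spread widely, array 3 of the embryo group lay above array 3 of the cKO group, and the difference was 1.93 ± 0.39 (adjusted p = 0.0194). Uncx was above background in 6 of 6 cKO arrays and 3 of 5 embryo arrays, and its second probe differed by 0.98. Esrrg, an orphan nuclear receptor gene, differed by 1.38 ± 0.29 (adjusted p = 0.0253), and its second probe by 0.96. Its signal was above background in 5 of 6 cKO arrays and 1 of 5 embryo arrays. Lmo2, a LIM-only adaptor of transcription complexes, differed by 1.16 ± 0.25 (adjusted p = 0.0253). Foxn4, a forkhead gene of retinal and spinal progenitors, was above background in 5 of 6 cKO arrays and 0 of 5 embryo arrays, at least 1.55-fold higher (adjusted p = 0.0143). Those 5 cKO arrays alone meet the filter of 5 arrays, so the detection counts of Foxn4 are no separate support. Lmcd1, whose LIM-domain protein acts as a transcriptional cofactor, measured 10.57, 10.61, 7.21, 10.47, 11.01 and 10.85 in cKO arrays, against 7.42, 7.38, 7.54, 7.52 and 7.56 in embryo arrays. The 5 cKO arrays other than array 3 lay far above the narrow embryo range and array 3 below it, with a fold of 6.21 (2.63 ± 0.50, adjusted p = 0.0126).

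Several genes of signalling and of sensory neurons rose as well. Cdhr1, a cadherin-related gene of photoreceptors and mitral cells, measured 8.41, 7.14, 4.50, 9.09, 6.52 and 6.74 in cKO arrays, against 4.56, 4.54, 4.52, 5.12 and 4.58 in embryo arrays. Array 3 was below all embryo arrays and the other 5 above them, and the level was at least 2.47-fold higher (limma adjusted p = 0.0387). Omp, the olfactory marker protein gene, measured 7.0, 6.79, 5.91, 7.64, 7.44 and 7.48 in cKO arrays, against 5.51, 5.35, 5.46, 5.64 and 5.48 in embryo arrays. Here array 3 too lay above every embryo array, and the level was at least 2.43-fold higher (adjusted p = 0.00937). Nxph4, a secreted neurexin ligand used as a subplate marker, averaged 9.89 ± 0.69 in cKO arrays and 8.44 ± 0.20 in embryo arrays, 2.73-fold (adjusted p = 0.00535). Lpar1, a lysophosphatidic acid receptor gene also used as a subplate marker, averaged 8.0 ± 0.52 in cKO arrays and 6.92 ± 0.19 in embryo arrays, 2.11-fold (adjusted p = 0.0161). Adcyap1, the gene of the neuropeptide PACAP, differed by 1.44 ± 0.33 (adjusted p = 0.0411). Chrna3, a nicotinic acetylcholine receptor subunit gene, differed by 1.42 ± 0.33 (adjusted p = 0.0431), and was above background in 5 of 6 cKO arrays and 1 of 5 embryo arrays. Gria1, an AMPA receptor subunit gene, differed by 1.14 ± 0.25 (adjusted p = 0.0318), and its embryo array 5, at 9.51, lay above cKO arrays 2 and 3.

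**Figure D2:**
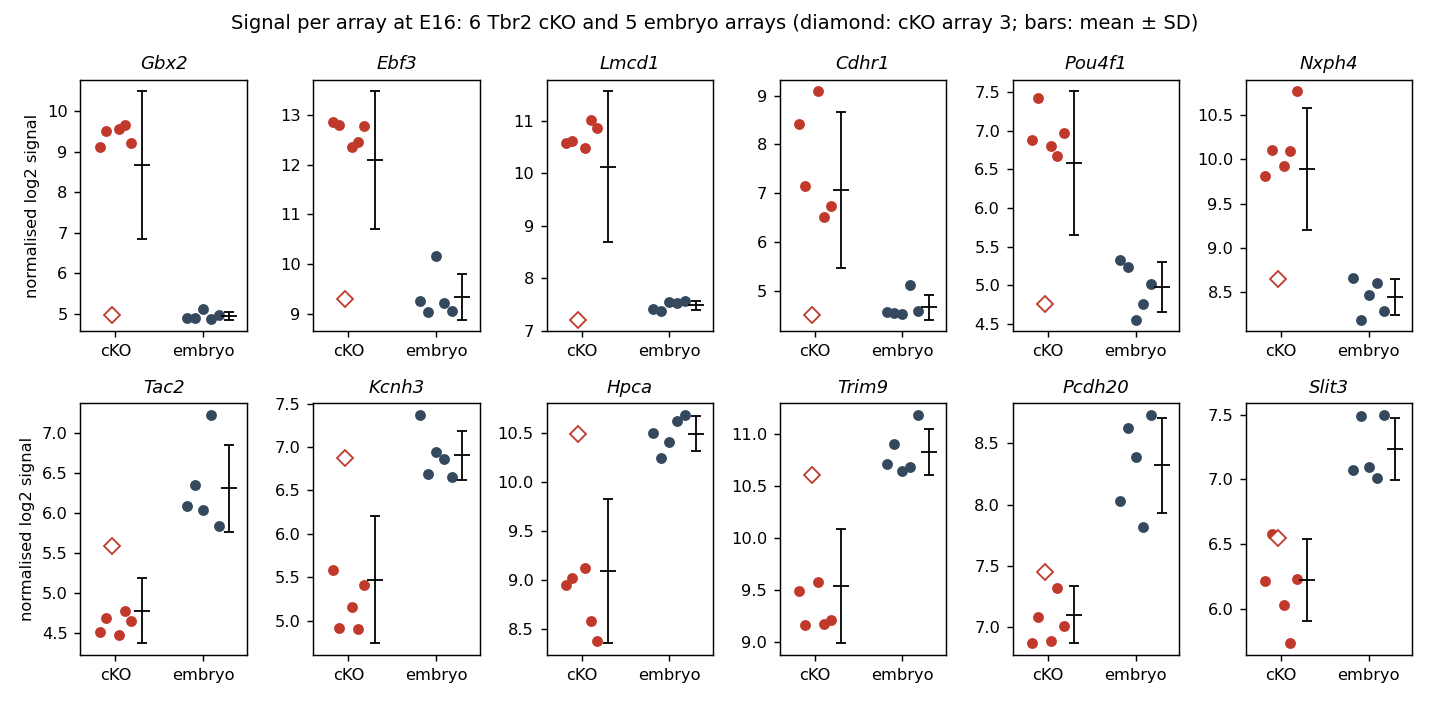
Normalised log2 signal of 12 genes in each E16 array, the 6 cKO arrays on the left of each panel and the 5 embryo arrays on the right, with mean ± SD beside each group. Genes of the upper set of panels rose and those of the lower set fell; cKO array 3 is the open diamond, at 4.98 for Gbx2 and 10.48 for Hpca, within the embryo ranges, but at 6.55 for Slit3, below all embryo arrays.

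Several genes of neuronal signalling fell. Tac2, the gene of the tachykinin neurokinin B and a marker of intermediate progenitors in the list used here, measured 4.51, 4.69, 5.59, 4.48, 4.77 and 4.65 in cKO arrays, against 6.09, 6.35, 6.03, 7.22 and 5.84 in embryo arrays. It was above background in 0 of 6 cKO arrays and in 5 of 5 embryo arrays, with array 3 the nearest of the cKO group to embryo. Among all embryonic arrays only those 5 embryo arrays detected it, which alone meets the filter of 5 arrays. These detection counts are therefore no separate support. Its level was at least 1.41-fold lower (limma adjusted p = 7.59e-05). Hpca, the gene of the calcium sensor hippocalcin, measured 8.95, 9.02, 10.48, 9.12, 8.58 and 8.38 in cKO arrays, against 10.50, 10.24, 10.40, 10.62 and 10.68 in embryo arrays. Array 3 lay among the embryo arrays and the others below them, 2.64-fold lower (adjusted p = 0.0144). Kcnh3, a voltage-gated potassium channel gene, was above background in 1 of 6 cKO arrays, array 3, and in 5 of 5 embryo arrays, and averaged 5.47 ± 0.74 in cKO arrays and 6.90 ± 0.29 in embryo arrays (adjusted p = 0.0253). Trim9, a brain-enriched ubiquitin ligase gene, measured 9.49, 9.16, 10.60, 9.57, 9.17 and 9.21 in cKO arrays, against 10.71, 10.90, 10.64, 10.68 and 11.18 in embryo arrays. All 6 cKO arrays lay below all embryo arrays, array 3 by a narrow margin, 2.44-fold lower (adjusted p = 0.00535). Lypd6, which encodes a membrane-anchored modulator of nicotinic receptors, was 2.43-fold lower (adjusted p = 0.000726), and Stxbp2, a syntaxin-binding gene of vesicle fusion, 2.29-fold lower (adjusted p = 0.0253).

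Several adhesion and guidance genes fell, and for some of them array 3 lay with the other cKO arrays. Pcdh20, a delta protocadherin gene, measured 6.87, 7.08, 7.45, 6.89, 7.32 and 7.01 in cKO arrays, against 8.03, 8.62, 8.39, 7.82 and 8.73 in embryo arrays. Slit3, a secreted ligand of Robo receptors, measured 6.21, 6.58, 6.55, 6.03, 5.73 and 6.23 in cKO arrays, against 7.07, 7.49, 7.10, 7.01 and 7.50 in embryo arrays. For both genes the groups did not overlap and array 3 lay on the cKO side, with folds of 2.32 (limma adjusted p = 0.00407) and 2.02 (adjusted p = 0.0143). Col22a1, a collagen gene, was lower in all 6 cKO arrays than in any embryo array, at 5.83 ± 0.45 in cKO arrays and 7.24 ± 0.16 in embryo arrays (adjusted p = 0.00407), although 2 of 6 cKO arrays held it above background. Uaca, an apoptosis-linked gene, also had no overlap, 2.22-fold lower (adjusted p = 0.0161). Cdh10, a classical cadherin gene, measured 5.74, 5.92, 7.91, 6.91, 6.18 and 5.62 in cKO arrays, against 7.50, 7.51, 7.32, 7.97 and 7.46 in embryo arrays. Array 3 lay within the embryo range and the other cKO arrays below it (difference -1.17 ± 0.27, adjusted p = 0.0403). Frmd6, a FERM-domain gene linked to the Hippo pathway, differed by -1.11 ± 0.24, Rhbdf1, an inactive rhomboid gene, by -1.17 ± 0.27 and Cldn3, a tight-junction claudin gene, by -0.97 ± 0.22, with adjusted p of 0.0253, 0.0469 and 0.0387, and array 3 lay within the embryo range for each. With the header ranges as a block, a setting chosen after seeing the data, Rhbdf1 was no longer called (0.0504). Adgra1, an adhesion G-protein-coupled receptor gene, was above background in 0 of 6 cKO arrays and 4 of 5 embryo arrays, at least 1.17-fold lower (adjusted p = 0.0253), while its second probe differed by -0.07.

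Most of the remaining called genes changed less. The other 12 higher genes differed by 0.68 to 1.16: Gm11346, Brinp1, Gcg, Lurap1l, Col9a2, Olfm4, Prokr1, Sertad4, Acer3, Grid2ip, Ackr1 and Esyt3. Among them Gcg, the proglucagon gene, averaged 10.72 ± 0.46 in cKO arrays and 9.66 ± 0.41 in embryo arrays, and Prokr1, a prokineticin receptor gene, was above background in 5 of 6 cKO arrays and 1 of 5 embryo arrays. The other 9 lower genes differed by -0.94 to -0.47: Arap2, Trpc7, Kremen1, Lrrn3, Bmper, Dpysl4, Tenm4, Lrpap1 and Dcbld1. Tenm4, a teneurin adhesion gene, averaged 12.38 ± 0.39 in cKO arrays and 13.16 ± 0.14 in embryo arrays. Kremen1, a receptor gene of the Wnt antagonist Dickkopf, averaged 5.79 ± 0.29 in cKO arrays and 6.66 ± 0.14 in embryo arrays. Of the called genes 10 higher and 6 lower had several probes, and 0 had probes of opposite sign. When each of the 11 arrays was left out in turn, 7 of the 28 higher and 8 of the 24 lower genes were called every time.

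**Figure D3:**
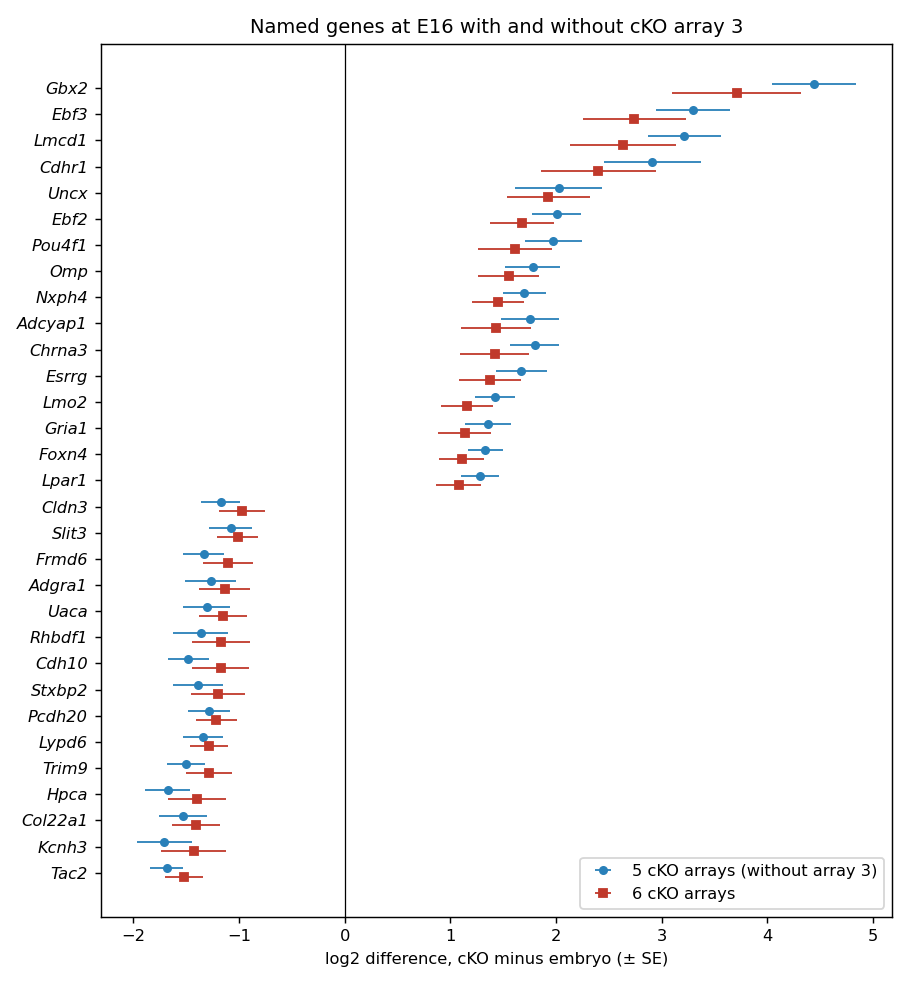
Difference of cKO minus embryo at E16 on the log2 scale for the 31 called genes named by rule, with all 6 cKO arrays (squares) and with the 5 that leave out array 3 (circles), each ± SE. Every gene kept its side of 0; Ebf3 differed by 2.74 with array 3 and 3.30 without it, and Slit3 by -1.01 and -1.08.

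A further 183 genes were called without array 3 and not with it, and those named here were chosen after their values were seen. Among cortical patterning and guidance genes, Cdh8, a cadherin of frontal and other cortical areas, measured 7.54, 7.44, 8.49, 7.75, 7.22 and 7.26 in cKO arrays, against 9.0, 8.96, 8.70, 8.70 and 8.87 in embryo arrays. All cKO arrays lay below all embryo arrays, with array 3 the nearest, at -1.23 ± 0.29 (limma adjusted p = 0.0518) and at -1.40 without array 3 (adjusted p = 0.00535). Cntnap2, a neurexin-family gene, differed by -1.47 without array 3 (adjusted p = 0.00131) and by -1.18 with it (0.0784). Cxcl12, the chemokine that guides Cajal-Retzius cells and interneurons, measured 7.33, 7.01, 9.17, 7.74, 6.55 and 7.20 in cKO arrays, against 8.91, 8.35, 9.03, 9.03 and 9.03 in embryo arrays. Array 3 was above the embryo arrays and the other 5 below them (-1.70 without array 3, adjusted p = 0.0107, and -1.37 with it, 0.16). Sema3a, a secreted repellent of axons, differed by -0.98 without array 3 (adjusted p = 0.0022) and -0.82 with it (0.0611). On the other side, Sp8, a zinc-finger factor of cortical patterning and of the olfactory bulb, measured 7.56, 7.59, 5.90, 7.38, 7.64 and 7.50 in cKO arrays, against 5.93, 6.14, 5.99, 5.66 and 5.86 in embryo arrays. Array 3 lay within the embryo range and the rest above it (1.62 without array 3, adjusted p = 0.00535, and 1.35 with it, 0.0815). Ccnd1, the cyclin D1 gene, measured 11.91, 11.85, 10.03, 11.28, 11.03 and 11.07 in cKO arrays, against 10.28, 9.97, 10.28, 10.17 and 9.53 in embryo arrays, and its difference of 1.38 was called without array 3 (adjusted p = 0.00202) but not with it (1.15, 0.0611), with array 3 again in the embryo range. With the header ranges as a block and array 3 included, Ccnd1 (0.0316), Cntnap2 (0.0231) and Sema3a (0.0366) were called, and Cdh8 (0.0539), Cxcl12 (0.137) and Sp8 (0.0738) were not.

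Lists of marker genes were compared with all tested genes, whose median difference was -0.0066, and -0.011 without array 3. Of these 10663 genes 5118 had a positive difference, and 749 had an unadjusted limma p under 0.05. Without array 3 the numbers were 4989 and 1047. Called genes made up 0.263% (higher) and 0.225% (lower) of all genes, and 1.08% and 1.13% without array 3. Of 22 measured intermediate progenitor genes 0 were higher, 1 was lower (Tac2) and 21 were not called, with a median of 0.07. Without array 3, 4 were higher (Eomes, Neurog1, Mfng and Rhbdl3), Tac2 was the 1 lower, and the median was 0.15. Neurog1, a proneural gene, differed by 0.64 with array 3 (limma adjusted p = 0.0784), Insm1, a zinc-finger factor of basal progenitors, by 0.45 (0.407) and Neurod1, a factor that follows them, by -0.23 (0.957). Of 19 radial glia genes 0 were called by limma and 2 had an unadjusted p under 0.05 (median 0.07), and 1 was higher without array 3: Pax6, at least 1.54-fold higher (adjusted p = 0.0181), which was not above background in any embryo array. Of 8 genes of the Pax6 and T-box cascade 0 were called by limma and 3 had an unadjusted p under 0.05 (median 0.15), and Tbr1 averaged 11.45 ± 0.40 in cKO arrays and 11.71 ± 0.44 in embryo arrays. Of 24 cell cycle genes 0 were called by limma and 4 had an unadjusted p under 0.05, while 22 of 24 had a positive difference, with a median of 0.18. With the header ranges as a block 1 of them was higher, Ccnd1.

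Layer markers stayed mostly uncalled. Of 20 deep-layer genes 0 were called by limma and 4 had an unadjusted p under 0.05 (median -0.14), against 749 of all 10663 genes tested. Without array 3, 2 were lower, Crym and Wnt7b, and 1 higher, Thsd7b, against 1.13% and 1.08% of all genes. Crym, which encodes a thyroid-hormone-binding crystallin, averaged 7.40 ± 0.36 in cKO arrays and 8.63 ± 0.65 in embryo arrays, a difference of -1.23 ± 0.32 (limma adjusted p = 0.0784). Of 15 upper-layer genes 0 were called by limma with array 3 or without it, and 2 and 3 had an unadjusted p under 0.05 (median -0.10 with array 3). Of 16 genes of newborn neurons 0 were called and 2 had an unadjusted p under 0.05 (median -0.024), and Rnd2, a migration gene, was higher without array 3 (0.69). Of 9 subplate genes 2 were higher, Nxph4 and Lpar1, against 0.263% of all genes, with a median of 0.08 over the 9.

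Lists of other territories held some of the largest rises, but the lists were written with earlier results of these data known. Of all genes tested 0.263% were higher with array 3 and 1.08% without it. Of 11 Cajal-Retzius genes 2 were higher, Ebf2 and Ebf3, with a median of -0.025 over the list, and Ebf1 was also higher without array 3 (1.04). Reln, the secreted glycoprotein that defines these cells, had a difference of -1.07 ± 0.30 that was not called (limma adjusted p = 0.121). Of 18 thalamus and habenula genes 2 were higher, Gbx2 and Pou4f1 (median 0.17). Tcf7l2, a defining factor of the thalamus, had a difference of -0.91 ± 0.34 (0.385), Lhx9, another, 0.17 ± 0.26 (0.999), and Tac1, of habenular neurons, was not above background in any E16 array. The mean level of the list was 6.92 to 7.65 per cKO array, with array 3 at 6.92, and 6.92 to 7.30 per embryo array. Of 11 olfactory bulb genes 1 was higher, Cdhr1 (median 0.08), and Th, of periglomerular cells, was not above background in any E16 array. The mean level of the olfactory bulb list was 6.80 to 7.49 per cKO array, with array 3 at 6.80, and 6.65 to 7.04 per embryo array. Of 9 interneuron and ventral progenitor genes 0 were called by limma and 0 had an unadjusted p under 0.05 (median 0.27), at 5.51 to 7.06 per cKO array and 5.55 to 6.16 per embryo array. The part of such cells in the results was not tested.

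**Figure D4:**
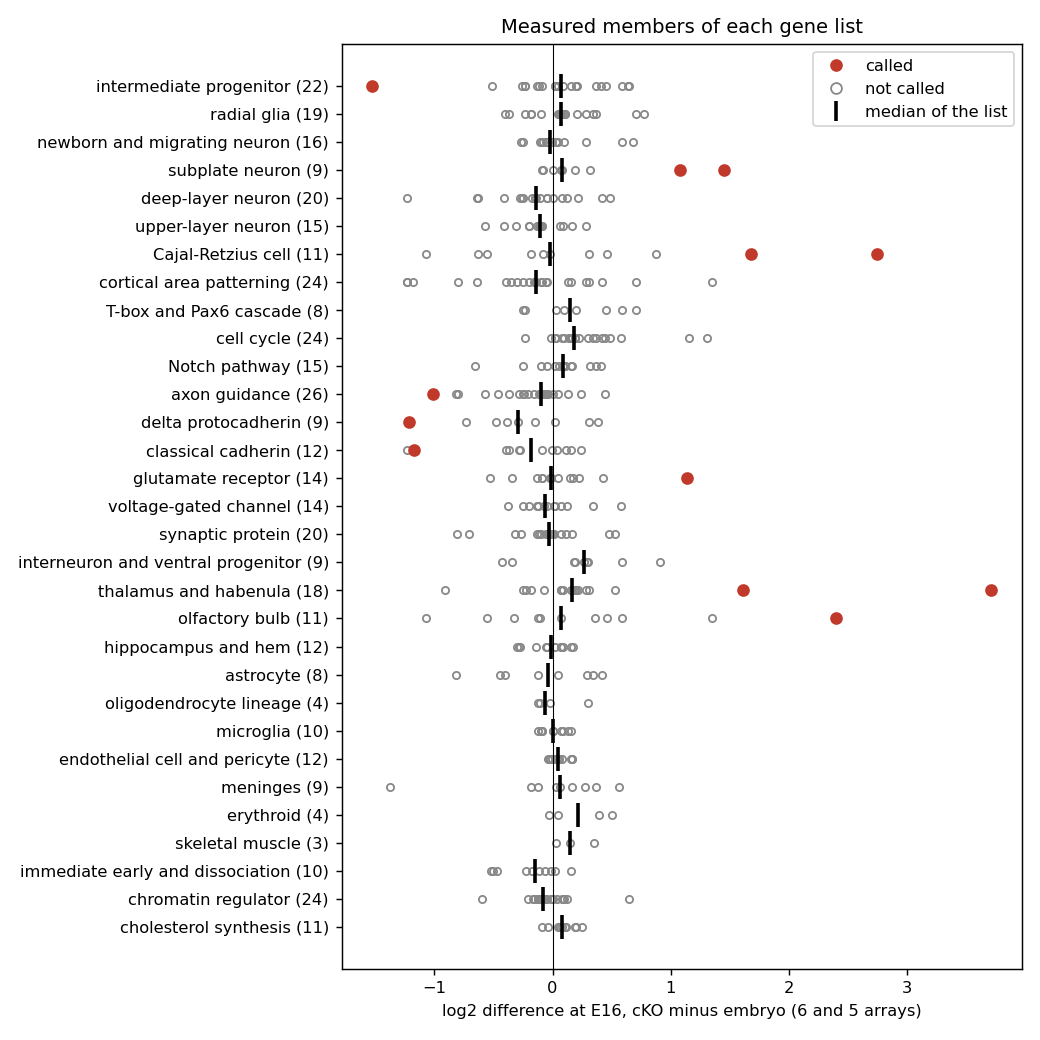
Difference of cKO minus embryo at E16 on the log2 scale (6 and 5 arrays) for each measured member of 31 gene lists, with the number of measured members after each name. Filled points are called genes and the vertical mark is the median of the list; most medians lie near 0 while single genes such as Ebf3, at 2.74, lie far out.

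Adhesion, guidance and synaptic lists held few calls. Of 9 delta protocadherin genes 1 was lower, Pcdh20, with a median of -0.29, and Pcdh19 was also lower without array 3 (-0.83) and, with array 3, under the header-range block (limma adjusted p = 0.0373). Of 12 classical cadherin genes 1 was lower, Cdh10 (median -0.19). Of 26 axon guidance genes 1 was lower, Slit3 (median -0.10), and 5 of the 26 were positive, against 5118 of all 10663 genes tested. Under the block 3 guidance genes were lower, Slit3, Sema3a and Epha7 (0.0411). Of 14 glutamate receptor genes 1 was higher, Gria1 (median -0.015). Of 14 voltage-gated channel genes 0 were called by limma with array 3 or without it, and 2 had an unadjusted p under 0.05 either way. Of 20 synaptic genes 0 were called both ways, with 4 at an unadjusted p under 0.05 with array 3 and 5 without it. Of 24 genes of cortical area patterning 0 were called by limma with array 3, and 9 had an unadjusted p under 0.05. Over all 10663 genes tested 749 had such a p with array 3, which is the background for the unadjusted counts here. For the calls, the background was 0.263% higher and 0.225% lower with array 3, and 1.08% and 1.13% without it. With the block 2 of the area patterning genes were lower, Epha7 and Cntnap2, against 36 lower over all genes. Without array 3 and with no block 2 were higher, Pax6 and Sp8, and 5 lower, Cdh8, Epha7, Crym, Wnt7b and Cntnap2. Of 24 chromatin regulator genes and 15 Notch pathway genes 0 were called by limma, with 2 and 3 at an unadjusted p under 0.05. Without array 3, Hdac9, a histone deacetylase gene, and Mfng, a Notch glycosyltransferase gene, were higher (0.84 and 0.55), and Smarcd3, a chromatin remodelling gene, was lower (-0.72).

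Most markers of microglia, vessels and meninges were not above background. Of 10 measured microglia genes 8, and of 12 endothelial and pericyte genes 9, were above background in no E16 array. The microglia list had mean levels of 4.78 to 4.95 in cKO arrays and 4.81 to 4.87 in embryo arrays, and the endothelial list 5.26 to 5.42 in cKO arrays and 5.28 to 5.35 in embryo arrays. Of 9 meningeal genes 5, including Col3a1 and Dcn, were above background in none, and Cxcl12, also on that list, was the 1 called without array 3. The choroid plexus gene Ttr was above background in no E16 array. Of 4 erythroid genes 0 were called by limma and 0 had an unadjusted p under 0.05, and Hba-a1 averaged 10.76 ± 1.31 in cKO arrays and 10.25 ± 0.77 in embryo arrays. Fosb, an immediate early gene of a transcription factor induced by activity, averaged 7.66 in the low range and 4.71 in the high range of cKO arrays, against 7.97 and 4.96 in those of embryo arrays, a difference that was not tested. Of 10 immediate early genes 0 were called by limma between cKO and embryo arrays, and 0 had an unadjusted p under 0.05 (median -0.15). Xist, the X-inactivation RNA, measured 10.90 to 12.36 in 5 cKO arrays and 4.48 in array 4, against 10.57 to 12.25 in 4 embryo arrays and 4.74 in array 4, so each group held 1 array with Y-linked Eif2s3y signal, at 10.01 in the cKO group and 9.84 in the embryo group.

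The E16 differences were set beside those of the same fit at E13, where 79 genes were higher in cKO arrays (0.741%) and 76 lower (0.713%), 155 in all (1.45%). These 2 comparisons share no array but are not independent. At both stages the cKO arrays came in 1 deposited table and the embryo arrays in another, so genotype and table cannot be told apart at either. All arrays were also normalised together, and each gene had 1 estimate of spread for both stages. Of the 28 genes higher at E16, 27 had a positive difference at E13 and 8 were called there, and of the 24 lower ones 21 had a negative difference and 6 were called. The share of all tested genes with the same sign at both stages is not given here, so the sign counts have no background. Together the 14 genes called at both stages made up 26.9% of the E16 calls and 9.03% of the E13 calls, and 0 were called in opposite directions. Gbx2 differed by 2.49 ± 0.61 at E13 (limma adjusted p = 0.032), Lmcd1 by 2.24 ± 0.50 (0.0177), Adcyap1 by 1.70 ± 0.33 (0.00748) and Kcnh3 by -1.53 ± 0.31 (0.0099). Pcdh20 differed by -0.99 ± 0.20 (0.00871) and Slit3 by -0.98 ± 0.20 (0.00945). Ebf3, at 1.74 ± 0.49, was not called at E13 (0.0795). Among genes called at E16 without array 3 only, Cdh8 differed by -1.68 at E13 (adjusted p = 0.00278) and Ebf1 by 1.40 (0.00184). Tbr1 differed by -1.15 at E13 (adjusted p = 0.0173) and by -0.25 ± 0.26 at E16 (0.991), an interaction of 0.90 that was not called (0.999). The E13 cKO group also held an array at embryo levels: over 10 genes called from the E16 arrays alone, its array 2 lay at 0.103, the other 4 between 1.06 and 1.35, and the E13 embryo arrays between -0.214 and 0.101. Without that array 192 genes were higher at E13 (1.8%) and 172 lower (1.61%), chosen after seeing the data, and they included 15 of the 28 higher and 8 of the 24 lower genes of E16.

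A difference between stages was tested as the interaction of stage and genotype, which called 2 genes (0.0188%), and 15 without array 3 (0.141%). Tac2, the only named gene among the 2, had an interaction of -1.48 (limma adjusted p = 0.0232). At E13 it was above background in 0 of 5 cKO arrays and 0 of 6 embryo arrays, at means of 4.52 and 4.56. Levels below background give no measured difference at E13, and whether the effect of the genotype on Tac2 differs by stage is not shown. The other, Nts, the gene of the peptide neurotensin, was chosen after its value was seen (interaction 1.41, adjusted p = 0.0232). It was above background in no E16 array and at E13 in 0 of 5 cKO and 5 of 6 embryo arrays, so the same limit holds at E16. By limma the interaction called 0 genes (243 to 638 at an unadjusted p under 0.05) with a common median, on the series matrix, without a filter, with the 4 embryonic groups, and without cKO array 5, cKO array 6 or embryo array 2. Omp had an interaction that was called without array 3 (0.0251) but not with it (0.314), and at E13 it was above background in 2 of 5 cKO and 3 of 6 embryo arrays. Trim9, at -1.29 ± 0.22 at E16 and -0.14 ± 0.22 at E13, had an interaction of -1.14, likewise called without array 3 (0.0198) and not with it (0.476). Adgra1 (0.0251 without array 3 and 0.129 with it), Bmper (0.0251 and 0.114) and Lrpap1 (0.0454 and 0.999) also had an interaction called only without it. Bmper differed by -0.85 ± 0.19 at E16 and 0.45 ± 0.19 at E13, and Lrpap1 by -0.73 ± 0.13 and -0.23 ± 0.13. For the rest of the 52 called genes, a difference between the stages was not shown with array 3 or without it.

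**Figure D5:**
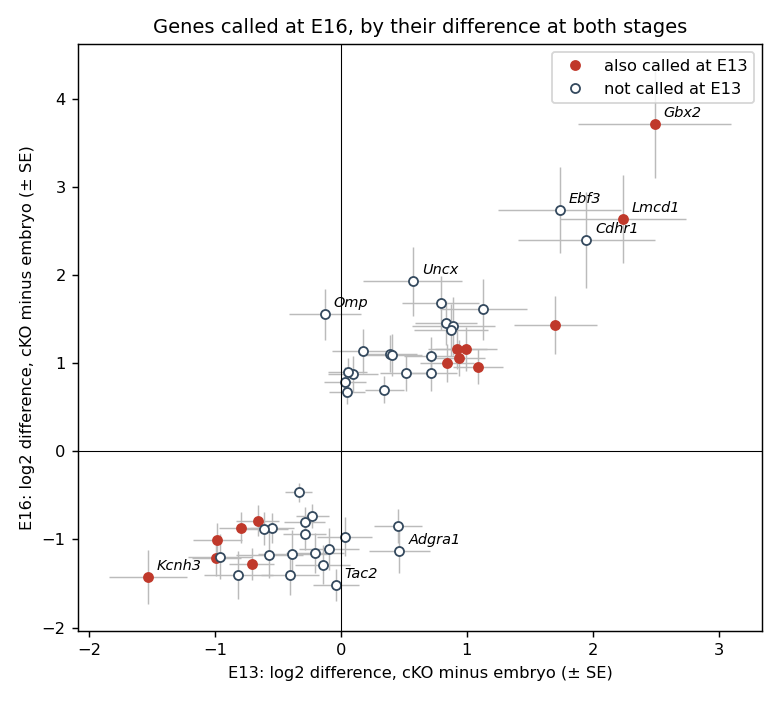
Difference of cKO minus embryo on the log2 scale at E13 (horizontal axis) and at E16 (vertical axis) for the 52 genes called at E16, each ± SE. Filled points are the 14 genes called at both stages; Slit3 lies at -0.98 on the E13 axis and -1.01 on the E16 axis.

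Genes near Eomes on chromosome 9 were checked as a property that the comparison had not used. Of the 20 tested neighbours on each side, 40 in all, 0 were called by limma with array 3 (differences between -0.60 and 0.47), where 3 had an unadjusted p under 0.05. Without array 3, 1 was lower, the integrin gene Itga9 (-0.70). Chromosome 9 held 5.76% of the genes tested and 4 of the 52 called, or 7.69%. T-box proteins bind the sequence AGGTGTGA, whose first letters AGGTGT form its core, so every AGGTGTGA also counts as AGGTGT. Both were searched on both strands of RefSeq promoters (GRCm38.p6), from 250 bases before to 50 after each start, and of 32851 promoters 1.28% held AGGTGTGA and 13.7% AGGTGT. Of the 11137 promoters of the genes tested 0.835% held AGGTGTGA and 10.7% AGGTGT. Entries were found for 22 of the 28 higher genes and 17 of the 24 lower ones. Of 31 promoters of the higher genes 5 held AGGTGT (16.1%) and 0 AGGTGTGA, and of 20 promoters of the lower genes 1 held AGGTGT (5.0%) and 0 AGGTGTGA. Adcyap1 counts more than once among the 5, since its promoters chr17:93198767-93199066 and chr17:93198918-93199217 overlap. They share a match, at 45 in the first and -107 in the second, and only the first is printed below. This raises the share of the higher genes with array 3 and without it. Without array 3 the shares with AGGTGT were 17.6% of 125 promoters of higher genes and 8.2% of 122 of lower genes. Among the 32 genes named by rule, 24 had an entry and 4 held AGGTGT, printed here with those letters, or ACACCT where the match is on the other strand, in capitals. They lie at chr14:104467950-104468249 (minus strand) for Pou4f1, with the match starting at -40 from the start, chr1:187608756-187609055 (plus strand) for Esrrg, at -108, chr17:93198767-93199066 (plus strand) for Adcyap1, at -181 and 45, and chr4:129120123-129120422 (minus strand) for Hpca, at -80. Of these genes only Hpca fell. A match is a description of the letters and not of binding.
Pou4f1: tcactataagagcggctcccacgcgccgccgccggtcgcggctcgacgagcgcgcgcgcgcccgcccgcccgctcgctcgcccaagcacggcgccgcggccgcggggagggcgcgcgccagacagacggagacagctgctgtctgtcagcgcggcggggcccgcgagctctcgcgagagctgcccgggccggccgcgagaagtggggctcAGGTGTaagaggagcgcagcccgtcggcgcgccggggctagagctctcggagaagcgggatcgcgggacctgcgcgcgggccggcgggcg
Esrrg: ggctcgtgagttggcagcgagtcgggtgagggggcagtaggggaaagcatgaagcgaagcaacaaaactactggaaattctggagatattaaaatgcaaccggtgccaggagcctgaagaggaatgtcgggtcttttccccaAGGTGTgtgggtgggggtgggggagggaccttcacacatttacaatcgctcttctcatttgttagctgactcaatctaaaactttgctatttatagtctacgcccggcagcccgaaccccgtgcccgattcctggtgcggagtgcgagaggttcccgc
Adcyap1: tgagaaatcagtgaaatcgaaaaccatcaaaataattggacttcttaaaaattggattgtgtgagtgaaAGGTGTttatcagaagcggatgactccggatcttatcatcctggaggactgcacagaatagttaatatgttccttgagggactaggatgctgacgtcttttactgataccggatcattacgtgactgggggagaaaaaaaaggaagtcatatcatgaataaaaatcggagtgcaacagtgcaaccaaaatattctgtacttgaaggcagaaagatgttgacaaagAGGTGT
Hpca: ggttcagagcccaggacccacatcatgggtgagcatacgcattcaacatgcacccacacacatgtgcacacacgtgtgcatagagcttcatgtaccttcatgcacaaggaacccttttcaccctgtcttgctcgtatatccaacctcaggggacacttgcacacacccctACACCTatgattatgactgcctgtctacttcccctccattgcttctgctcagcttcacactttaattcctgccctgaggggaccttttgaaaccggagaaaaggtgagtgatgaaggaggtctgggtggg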

How the data were processed

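Per the file headers, the deposited tables hold, for each of 27 arrays, a signal intensity per probe, which can be negative (-50.8 to 48266), and a detection p-value; which scanner software made them is not given in the sources used here. A deposited series matrix holds the authors' log2 values for 12377 probes and was used as an alternative. Its scale was taken from its values, and how it was centred stays unknown.

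The intensities of all 27 arrays were background-corrected together (normexp, with negative controls inferred from the detection p-values, offset 16), quantile normalised and put on the log2 scale with limma 3.58.1 in R 4.3.3. Of 45281 probes, 34885 had 1 gene symbol, 18 several and 10378 none in the platform annotation, and the symbols of 34807 probes matched RefSeq. A probe was kept if 5 or more arrays gave it a detection p under 0.01, which left 20498 probes. A gene was represented by its kept probe of highest mean, giving 10663 genes, 4352 of them with several kept probes. 1 mean per group was fitted over the 5 groups (lmFit, eBayes), with Benjamini-Hochberg adjustment over all genes. A group with no array above background has only a bound, the "at least" fold, set against the lowest detected signal. This bound concerns the group means and carries no sampling error. It is approximate where an array of the other group was also below background, since that array entered at its measured value. Groups were taken from the titles and the column headers, which give the group of a column but not which sample it is.

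Named genes were Eomes, the 15 called genes with the largest difference in each direction, without predicted or numbered names and sex-linked genes, and up to 4 called members of each of 32 lists with the largest difference. The members and lists were chosen with earlier results of these data known. The fit was tested on simulated data. Alternatives covered normalisation, filter, probe choice, samples fitted, array weights, each array left out, and the header ranges as a block.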

Additional observations from a re-analysis of the deposited data

Results flagged for a closer look

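Within the groups of 5 and 6 arrays, each named gene was examined for an array whose gap to its nearest neighbour was large for the range of its group (Dixon's 95% limit), in 64 tests. Chance gives about 1 in 20 such findings, and 16 were found. Of these 13 were cKO array 3. It was the lowest of the cKO arrays for Gbx2 (4.98), Ebf3 (9.30), Lmcd1 (7.21), Ebf2 (5.81), Pou4f1 (4.76), Chrna3 (4.97), Lmo2 (8.66) and Lpar1 (6.99). It was the highest for Tac2 (5.59), Kcnh3 (6.87), Hpca (10.48), Trim9 (10.60) and Rhbdf1 (7.52). In each of these genes array 3 lay on the side of the embryo arrays. The others were embryo arrays: array 3 for Ebf3 (10.16), array 4 for Cdhr1 (5.12) and array 2 for Lypd6 (7.75).

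Tac2 had an interaction of stage and genotype of -1.48 (limma adjusted p = 0.0232). It was lower in all 6 cKO arrays than in any embryo array at E16, and above background in no cKO or embryo array at E13, so whether the effect of the genotype differs by stage is not shown.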

How the results depend on the processing

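The E16 comparison gave 28 higher and 24 lower genes, 8 and 4 calls among list members, 2 interaction genes, an Eomes difference of 0.59 and a higher share of 53.8%. Of the 31 called genes named, 0 reversed where tested, but 19 were not tested on the series matrix, 8 under detection in every array and 1 with only the 11 E16 arrays fitted. Many lost their call: 25 of 31 with only the E16 groups fitted and 27 of 30 with only the 11 E16 arrays normalised and fitted. Without embryo array 2 it was 19 of 31, and without a filter 15 of 31. Calls fell to 1 higher and 9 lower with only the E16 groups fitted (0 higher list members, share 10%). They fell to 0 higher and 6 lower with only those 11 arrays normalised and fitted (631 genes at an unadjusted p under 0.05; 0 higher list members, share 0%), and to 7 and 14 on the series matrix (2 and 1 list members, 0 interaction genes with 243 at an unadjusted p under 0.05, share 33.3%). They fell to 13 and 12 without a filter (5 and 2 list members, 0 interaction genes with 638 unadjusted). With the 4 embryonic groups 15 were higher (0 interaction genes with 413 unadjusted). Detection in every array gave 4 higher list members and 1 interaction gene. Scaling to a common median gave 7 lower list members and 0 interaction genes (260 at an unadjusted p under 0.05), and normalising each table alone 68 lower genes, 10 lower list members and a share of 28.4%. Array weights gave 44 higher and 44 lower genes, 9 lower list members and 7 interaction genes.

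Leaving out each array in turn gave 8 to 115 higher genes, 8 to 120 lower genes, 4 to 19 and 2 to 13 list members, 0 to 15 interaction genes and an Eomes difference of 0.46 to 0.75. The lowest counts, 8 and 8, came without embryo array 2, and the highest without cKO array 3. Without cKO array 3 the counts were 115 and 120 genes, 19 and 13 list members and 15 interaction genes. Leaving out the array at embryo level at both stages gave 131 and 134 genes, 22 and 18 list members, 60 interaction genes and 0.75 for Eomes. The remaining alternatives were chosen after seeing the data. The header ranges as a block gave 39 higher and 36 lower genes and 8 lower list members, and, without array 3, 201 genes in either direction (235 without array 3 and with no block), 50.2% of them higher, 21 and 13 list members, 15 interaction genes and 0.84 for Eomes. Without cKO array 3 the middle range holds only embryo array 3. The block then fits that array with its own term, so it adds nothing to the difference, and more than the block sets 201 apart from 235. Only the E16 groups without array 3 gave 115 and 100 genes, 19 and 14 list members and 0.75. The cause of these shifts was not tested. Replicate numbers in the labels could be tied to arrays only in the series matrix, where same-numbered samples correlated at 0.062 to 0.509 and 3 of 5 cKO samples matched their own number best. With a replicate block there, 7 genes were higher and 19 lower, with 2 higher list members, 1 interaction gene and a share of 26.9%. The BeadChip as a block was not run, since the columns name none. The number of arrays and probes near background limit what could be called.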
